A study of Arabidopsis thaliana with 18 samples.

Results

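SR30 (AT1G09140), SR34 (AT1G02840) and SR34b (AT4G02430) are 3 related splicing factor genes of Arabidopsis thaliana, and their own transcripts were measured here by polyA RNA sequencing of the first leaf. Every listed splicing event whose ID names 1 of the 3 loci was taken, which gave 16 of the 6553 events in any list: 2 of SR30, 5 of SR34 and 9 of SR34b. Of these, 15 were among the 5403 events listed in all 9 groups, and 1 retention event of SR34b was listed in 3 groups. The groups were 4 F1 hybrids (Col-0 x Ler-1, Col-0 x Bur-0, Col-0 x Kro-0 and also Col-0 x C24) and the 5 parental accessions (C24, Ler-1, Bur-0, Kro-0 and, as the common parent, Col-0), each with 2 libraries from biological replicates. Accessions are natural inbred lines and Col-0 is the source of the reference genome. Leaves came from seedlings 14 days old, raised on sucrose plates (1%) at 22 °C in the 16 h of light (100 µmol per square metre and second) and at 18 °C in the 8 h of darkness. The 4 comparisons with Col-0 share its libraries, as do the 4 hybrid comparisons.

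SR proteins carry RNA-recognition motifs and a tail rich in arginine and serine. They bind the pre-mRNA, help the spliceosome find splice sites, and commonly have alternatively spliced transcripts themselves. SR30, SR34 and SR34b are among the plant counterparts of human SRSF1 (SF2/ASF). SR30 is known to act on the splicing of its own transcript and that of SR34, and loss of SR34b is known to make seedlings sensitive to cadmium. In many plant SR genes the longest intron holds several competing splice sites. Forms with an early stop codon upstream of an exon junction are a known type of substrate of nonsense-mediated decay.

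SR34 lies on the plus strand at chr1:626639-629993, SR34b on the plus strand at chr4:1068974-1072263 and SR30 on the minus strand at chr1:2942538-2945976 (RefSeq annotation of TAIR10.1). The long introns of SR34 and SR34b have matching sets of splice sites, named here A, B, B11 and C in SR34 and a, b, b11 and c in SR34b. B11 and b11 lie 11 nt past B and b. The acceptors of the 2 genes are printed below because the events turn on the choice among them. Each line gives 18 intron bases ending in AG (capitals) and 6 exon bases, 5′ to 3′, from the TAIR10.1 reference, that is, from Col-0.
SR34 acceptor A: aatggttttgtttcatAGatatgg
SR34b acceptor a: aatggttttgtttcttAGatatgg
SR34 acceptor B: aatttacattgctgctAGatggat
SR34b acceptor b: aatatccattgctgctAGatgggt
SR34 acceptor B11: ctgctagatggataacAGtggaga
SR34b acceptor b11: ctgctagatgggtaacAGtggaga
SR34 acceptor C: tttcttggacttttgcAGatcgcg
SR34b acceptor c: tttctcggacttttgcAGatctcg

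Of the 24 letters, 23 were identical between A and a, 21 between B and b, 23 between B11 and b11 and 22 between C and c. The donors are less alike: 8 of 16 letters were identical at the long intron donors and 10 of 16 at the inner donors, which sit between the first and second acceptor of each gene. All 6 of these SR34 sites are annotated in TAIR10.1. In SR34b, acceptor a, the inner donor and acceptor c are not annotated there. The SR34b donors follow, each with 6 exon bases, then GT (capitals) and 8 further intron bases.
SR34b long intron donor: acgaggGTatgcttca
SR34b inner donor: tcagagGTatatgctc
SR34b upstream leader donor: tctcagGTgatcggaa
SR34b downstream leader donor: ccttagGTtaatcgtt

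The value of each event is PSI (percent spliced in), which the files compute as second-form reads over 1 more than the total of the pair, here in percent. The second form keeps more sequence: the retained intron, the acceptor nearer the donor, or the donor further downstream. The 1 in the denominator lowers PSI where reads are few, so 28 of 28 reads give a PSI of 96.6%. Library totals over listed events ranged from 3186952 to 6134488 reads, and the median event had 62 to 118 reads. Nothing in the files gives the expression level of a gene, and in leaves a difference between cell types cannot be told apart from a difference within cells. The mesophyll markers RBCS1A, CA1, RCA and LHCB5 each had at least 13019 reads in every library. The guard cell markers FAMA and MYB60 had 43 to 275 reads, and KAT1 (guard cell), GL2 (trichome), SUC2 and APL (phloem), and KNOLLE and CYCB1;1 (dividing cells) had no listed event.

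Calls rest on edgeR's quasi-likelihood test, with a Benjamini-Hochberg adjusted p below 0.05 over all events that had 10 or more reads in every library compared. C24 differed from Col-0 in 4 of 10 tested events of the 3 genes, where 5.94% of all tested events were called. Kro-0 differed from Col-0 in 2 of 10 (5.17% of all) and Ler-1 in 2 of 11 (6.80% of all). Bur-0 differed from Col-0 in 0 of 13 (8.66% of all). In that comparison 0 events passed an unadjusted p of 0.05, and DESeq2 and limma on PSI called 0 (limma called 5.66% of all). The median absolute PSI difference from Col-0 over the tested events of the 3 genes was 8.86 percentage points in C24 (2.18 over all events), 15.9 in Kro-0 (2.15), 4.85 in Ler-1 (1.96) and 4.22 in Bur-0 (2.27).

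Between the other accessions, 4 of 10 events were called in Bur-0 against C24 (7.70% of all), 3 of 10 in Bur-0 against Kro-0 (6.02% of all) and 3 of 11 in Bur-0 against Ler-1 (7.50% of all). In C24 against Kro-0 2 of 10 were called (4.76% of all), in C24 against Ler-1 3 of 9 (5.80% of all) and in Kro-0 against Ler-1 4 of 9 (4.46% of all). Events of a gene that share a junction share its reads, so these counts are not independent. Of the 16 events, 13 were tested in at least 1 of the 10 comparisons of accessions and 8 were called in at least 1, where 21.7% of all events so tested were called in at least 1.

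**Figure D1:**
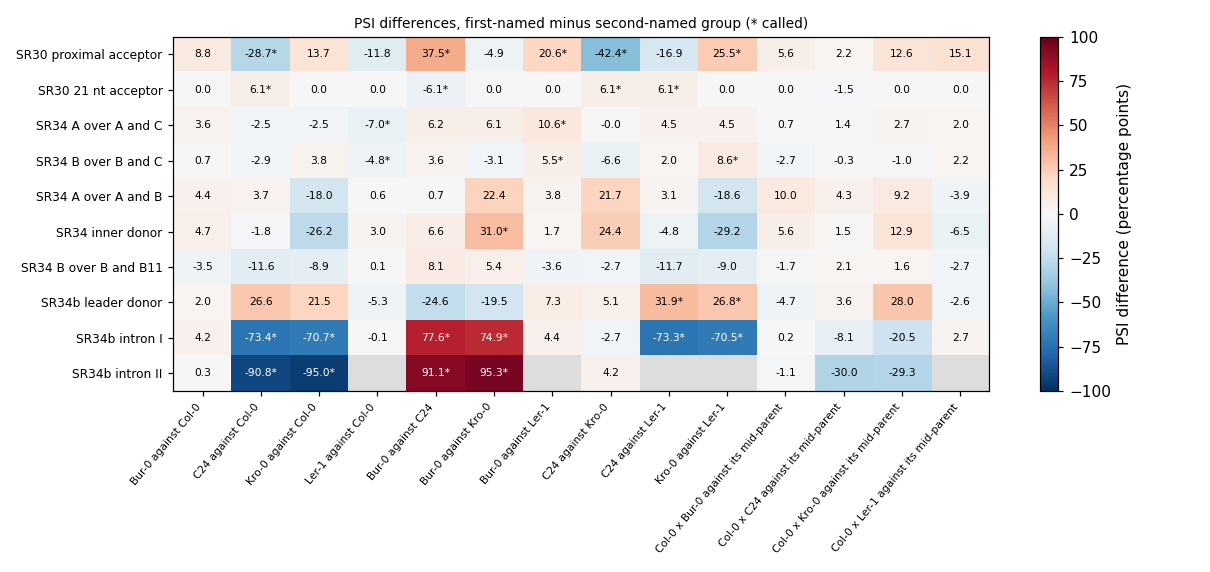
PSI differences in percentage points for the 10 events described one by one (rows) in the 10 comparisons of accessions and the 4 of hybrids with the mean of their parents (columns), each first-named minus second-named group; asterisks mark edgeR calls and grey cells were not tested. The largest differences shown are in SR34b introns I and II wherever C24 or Kro-0 is set against Bur-0, Col-0 or, for intron I, Ler-1, and in no hybrid column is an event called.

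SR34b showed the widest spread of the 3 genes. In C24 and Kro-0 a short intron inside its long intron was spliced out almost completely, while no read of Bur-0, Ler-1 or Col-0 showed it spliced. This intron, called intron II here, runs from the inner donor to acceptor b11, is 69 nt long in the reference and lies at chr4:1071216-1071284. Its PSI (retention) was 2.08% and 8.16% in C24 and 1.82% and 0% in Kro-0, against 95.2% and 96.6% in Col-0. Bur-0 had 96.4% and 96.0%, and Ler-1 had 90.0% and 94.1%. C24 and Kro-0 thus lay at the bottom of the scale and the other 3 accessions at the top, with no overlap. The spliced form had 0 of 51 reads in Bur-0 (which allows up to 5.88%), 0 of 25 in Ler-1 (up to 12.0%) and 0 of 48 in Col-0 (up to 6.25%). Retention averaged 5.12 ± 4.30% in C24 and 95.9 ± 0.929% in Col-0 (SD, n = 2 each; edgeR adjusted p = 1.6e-06), and 0.909 ± 1.29% in Kro-0 (SD, n = 2; edgeR adjusted p = 2.1e-07 against Col-0). It was also lower in C24 and in Kro-0 than in Bur-0 (edgeR adjusted p = 6.3e-07 and 1.2e-07). Ler-1 replicate 1 had 9 reads, under the minimum, so no comparison with Ler-1 was made.

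Intron I, from the long intron donor to acceptor a, behaved likewise in the same accessions. It is 236 nt long and lies at chr4:1070887-1071122, and an exon of 93 nt separates it from intron II. PSI was 27.0% and 9.09% in C24 and 20.5% and 21.2% in Kro-0, against 87.5% and 95.5% in Col-0. Ler-1 had 94.4% and 88.2%, and Bur-0 had 96.2% and 95.2%. Again the C24 and Kro-0 libraries lay below all 6 libraries of the other accessions. Retention averaged 18.1 ± 12.7% in C24 and 91.5 ± 5.62% in Col-0 (SD, n = 2 each; edgeR adjusted p = 0.00012), and 20.8 ± 0.494% in Kro-0 (SD, n = 2; edgeR adjusted p = 0.0001 against Col-0). Both differences from Bur-0 and from Ler-1 were also called (edgeR adjusted p = 1.4e-05 to 0.00016). C24 and Kro-0 differed from each other by -2.75 percentage points, with overlapping libraries (edgeR adjusted p = 0.97). The PSI of intron I sets reads retaining it against reads joined to acceptor a only. Reads joining the long intron donor to b, b11 or c remove intron I and at least most of intron II. They count in neither form of either event, so these PSI values are not shares of all transcripts. In Col-0, 22 reads joined that donor to b and 12 to b11, against 35 retaining intron I and 1 joined to a.

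**Figure D2:**
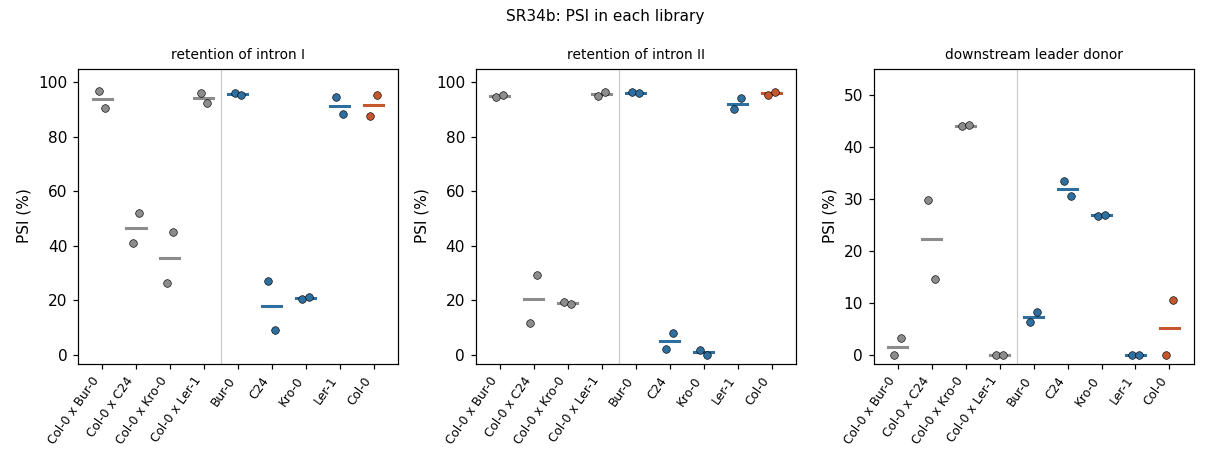
PSI in percent (y) of SR34b intron I, intron II and the downstream leader donor in each library (points) with the mean of the 2 libraries (bars), for hybrids (grey), accessions (blue) and Col-0 (orange). C24 and Kro-0 lie under 30% for intron I and under 10% for intron II, and for both introns their hybrids with Col-0 lie above them and below Col-0.

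The junction reads that leave the long intron donor gave the choice of acceptor directly. In C24, 55 of 60 such reads ended at acceptor a, and in Kro-0 74 of 77 did, against 1 of 35 in Col-0. Bur-0 had 0 of 31 and Ler-1 had 1 of 23 at acceptor a. In Bur-0 19 reads ended at b and 7 at b11, in Ler-1 11 and 5, and in Col-0 22 and 12. In C24 and Kro-0 no read joined the long intron donor to b and 1 read in each joined it to b11. Acceptor c had 4 reads in C24, 2 in Kro-0, 5 in Bur-0, 6 in Ler-1 and 0 in Col-0, too few to compare.

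**Figure D3:**
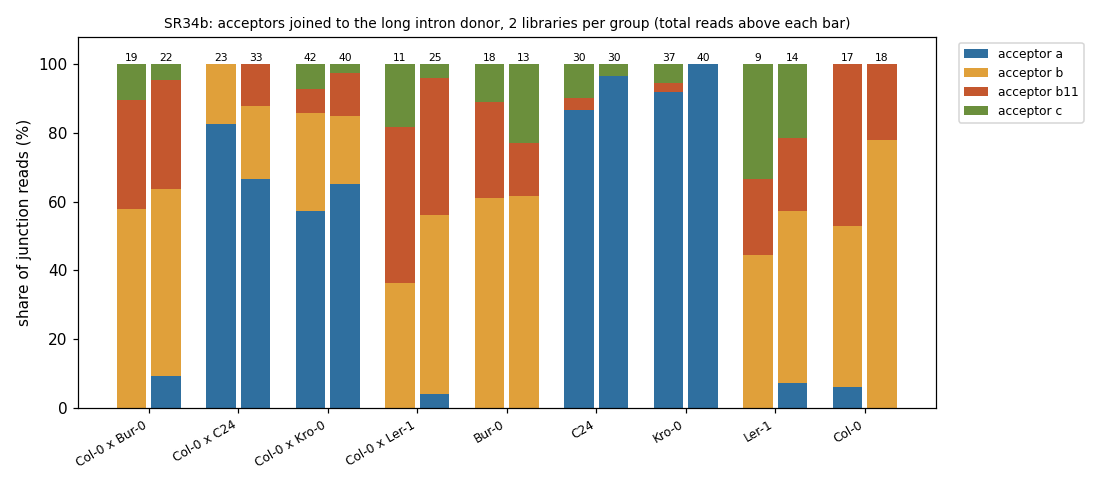
Share of the junction reads from the SR34b long intron donor, in percent (y), that end at each of the 4 acceptors, 1 bar per library with its total reads above it. Acceptor a (blue) makes up most of every C24 and Kro-0 bar and is nearly missing from the Bur-0, Ler-1 and Col-0 bars, while the bars of the C24 and Kro-0 hybrids hold both patterns.

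The names of the events also carry positions on each accession's own assembly, which give intron lengths. Intron II is 82 nt long in C24 and in Kro-0, against 69 nt in the reference, and Bur-0 and Ler-1 have the reference length. Intron I is 235 nt long in C24, Kro-0 and Ler-1, against 236 nt. The longer intron II thus occurred in the 2 accessions that spliced it; whether the length has a part in the splicing was not tested. Read on the reference sequence, removal of both introns would leave 278 codons before a stop, with 3 exon junctions after it. Joining the long intron donor to b would leave 278 codons and 2 later junctions, to b11 292 codons and 2, to c 282 codons and 1. The last exon junction would lie 447, 394 and 46 nt after the stops of the b, b11 and c forms. With both introns removed it would lie 529 nt after the stop. Retaining the whole long intron would leave 272 codons and 2 later junctions, the last 852 nt after the stop.

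The 5 remaining SR34b events in all lists and the 1 in 3 lists concern retention or acceptor choice over the long intron as a whole. They had 0 to 46 reads per library. The choices of b over c and of b11 over c had too few reads to be tested in any comparison. None of the others was called where it could be tested. In Bur-0 and Col-0, where most could be tested, retention up to b was 71.2 ± 6.37% in Bur-0 and 63.5 ± 2.72% in Col-0, and retention up to b11 was 85.8 ± 6.42% in Bur-0 and 75.6 ± 9.32% in Col-0 (SD, n = 2 each). The choice of b over b11 was 68.7 ± 5.67% in Bur-0 and 60.4 ± 18.8% in Col-0. Retention up to c, the event not in all lists, was 80.7 ± 2.41% in Bur-0 and 91.7 ± 0% in Col-0 (edgeR adjusted p = 0.25 in a fit of those libraries alone). None of these 4 differences passed the test.

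Another SR34b event lies far upstream, in the 5′ UTR, where 2 donors 71 nt apart join 1 acceptor. PSI of the downstream donor was 33.3% and 30.4% in C24 and 26.7% and 26.9% in Kro-0, against 0% and 10.5% in Col-0. Bur-0 had 6.25% and 8.33%, and Ler-1 had 0% in both libraries, from 0 of 35 reads (up to 8.57%). The same pair of accessions was thus highest, without overlap with the other 3. The event rests on 12 to 51 reads per library. The differences from Col-0, 26.6 percentage points in C24 and 21.5 in Kro-0, did not pass edgeR's test (adjusted p = 0.15 and 0.21) but passed limma on PSI (adjusted p = 0.0095 and 0.025), which called 5.09% and 4.46% of all events in those comparisons. Against Ler-1 both were called by edgeR (adjusted p = 0.015 in C24 and 0.025 in Kro-0), and both calls were lost on leaving out any 1 of the compared libraries.

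SR30 differed most in C24, at 2 separate places. In its last alternative intron, 2 acceptors 338 nt apart share 1 donor. On the reference, the distal acceptor gives a frame of 268 codons with no exon junction after the stop, and the proximal one a frame of 256 codons with 1 junction after the stop, 359 nt on. Both are printed with their AG in capitals, since C24 favoured the distal one.
SR30 proximal acceptor: gcgttgtttgttttctAGatctgg
SR30 distal acceptor: tttttggtcttgctgcAGgtccca

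PSI of the proximal acceptor was 25.0% and 14.8% in C24, against 42.7% and 54.4% in Col-0. Ler-1 had 34.8% and 38.7%, Bur-0 had 57.2% and 57.5%, and Kro-0 had 61.4% and 63.2%. The order of the means was thus C24, Ler-1, Col-0, Bur-0, Kro-0, with no overlap of libraries between neighbours. The proximal acceptor fell to 19.9 ± 7.24% in C24, against 48.5 ± 8.25% in Col-0 (SD, n = 2 each; log2 odds difference -1.96, edgeR adjusted p = 0.0028). Without C24 replicate 2 this call was lost (edgeR adjusted p = 0.13). It was also lower in C24 than in Bur-0 (edgeR adjusted p = 0.00019) and in Kro-0 (edgeR adjusted p = 9.7e-05). Bur-0 and Kro-0 were higher than Ler-1 by 20.6 and 25.5 percentage points (edgeR adjusted p = 0.035 and 0.016). The Bur-0 call held in 4 of 12 alternative settings and was lost under DESeq2 and on leaving out any 1 of the 4 libraries (adjusted p up to 0.23). The Kro-0 call held in 6 of 12 and was lost without Kro-0 replicate 2, Ler-1 replicate 1 or Ler-1 replicate 2 (adjusted p up to 0.14). Of the neighbours in the order, none differed by the test: Ler-1 against Col-0 gave an edgeR adjusted p of 0.36, Bur-0 against Col-0 0.48, C24 against Ler-1 0.076 and Bur-0 against Kro-0 0.74.

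The second SR30 event is an acceptor used in C24 alone among the accessions. It lies 21 nt upstream of an annotated acceptor. In C24, 8 of 146 and 8 of 117 reads used it (PSI 5.44% and 6.78%), against 0 of 626 reads in Col-0, which allows up to 0.479%. Bur-0, Kro-0 and Ler-1 also had 0 reads of it, with upper limits of 0.589%, 0.667% and 0.619%. The C24 libraries were thus the only accession libraries above 0, and the difference was called against each of the other 4 accessions (edgeR adjusted p = 0.00077 against Col-0, and 0.001, 0.0021 and 0.0015 against Bur-0, Kro-0 and Ler-1). The reference letters at the 2 acceptors follow, with the last 2 intron bases in capitals.
SR30 upstream acceptor of the 21 nt pair: tttctgaaatgatgttATttgcta
SR30 downstream acceptor of the 21 nt pair: ctatttacgggtgattAGgatcac

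At the upstream position the reference, and so Col-0, reads AT where an acceptor reads AG, and the site is not annotated. The letters that C24 has there were not analysed here. If the 21 nt were kept, the reference frame would stop after 132 codons, with 6 exon junctions after the stop.

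**Figure D4:**
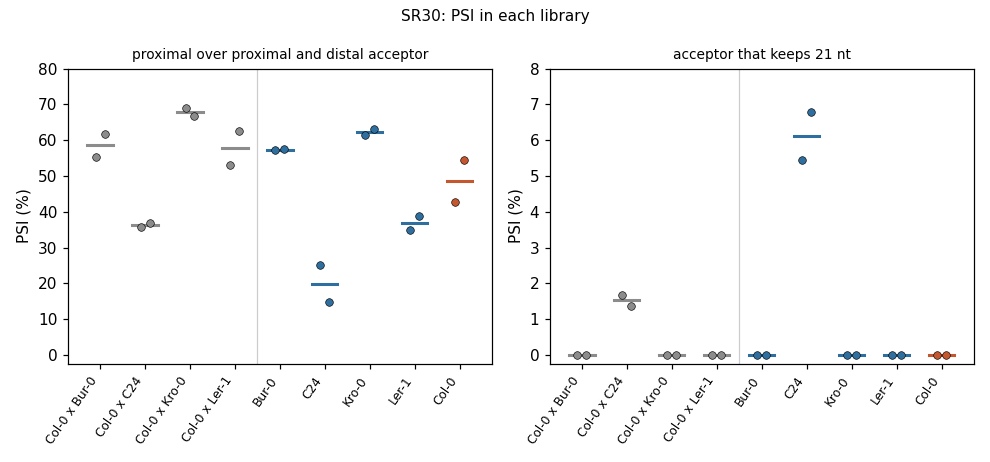
PSI in percent (y) of the SR30 proximal acceptor and of the acceptor that keeps 21 nt, in each library (points) with the mean of the 2 libraries (bars), for hybrids (grey), accessions (blue) and Col-0 (orange). C24 is lowest in the left panel, and in the right panel C24 and Col-0 x C24 alone lie above 0.

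SR34, the close relative of SR34b, used acceptors A and B less in Ler-1 than in Bur-0 or Col-0. Acceptor C, which on the reference gives the longest frame (303 codons, with no exon junction after the stop), took the rest. Joining A gives 272 codons and joining B 285 codons, each with 2 exon junctions after the stop. Of the reads from the long intron donor, 93.1 ± 0.450% ended at C in Ler-1, 87.1 ± 1.14% in C24, 81.5 ± 0.535% in Kro-0, 78.8 ± 0.642% in Bur-0 and 82.6 ± 3.19% in Col-0 (SD, n = 2 each). C was thus the main acceptor in each of the 5 accessions.

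PSI of A over A and C was 3.88% and 5.37% in Ler-1, against 10.3% and 13.0% in Col-0. Bur-0 was highest, with 16.1% and 14.4%, while C24 had 9.84% and 8.33% and Kro-0 had 9.30% and 8.89%. Ler-1 lay below all other accessions. A over A and C fell to 4.63 ± 1.05% in Ler-1, against 11.6 ± 1.90% in Col-0 (SD, n = 2 each; log2 odds difference -1.43, edgeR adjusted p = 0.034), and was also called between Bur-0 and Ler-1 (edgeR adjusted p = 0.0045), though not without Bur-0 replicate 1 or Ler-1 replicate 1 (up to 0.082). PSI of B over B and C was 2.94% and 2.08% in Ler-1, against 6.01% and 8.71% in Col-0, and Kro-0 had 11.4% and 10.9%. Ler-1 was again lowest and Kro-0 highest. B over B and C fell to 2.51 ± 0.607% in Ler-1, against 7.36 ± 1.91% in Col-0 (SD, n = 2 each; log2 odds difference -1.59, edgeR adjusted p = 0.044). Bur-0 and Kro-0 were both higher than Ler-1 (edgeR adjusted p = 0.031 and 0.0035). The Bur-0 call held in 6 of 12 alternative settings and was lost under DESeq2 and on leaving out any 1 of its 4 libraries (adjusted p up to 0.19), and the Kro-0 call was lost without Ler-1 replicate 2 (edgeR adjusted p = 0.061). The A call in Ler-1 against Col-0 held in 5 of 12 alternative settings and the B call in 2 of 12, and both were lost on leaving out any 1 of the 4 libraries.

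In Kro-0 the use of sites inside the long intron of SR34 differed in another way. PSI of the inner donor, over the inner and the long intron donor joined to B, was 40.9% and 44.7% in Kro-0, against 73.7% and 64.4% in Col-0. Bur-0 had 76.8% and 70.7%, C24 had 64.0% and 70.4%, and Ler-1 had 61.5% and 82.5%. The Kro-0 libraries lay below all the others. The inner donor was called between Bur-0 and Kro-0 (73.8 ± 4.33% in Bur-0 and 42.8 ± 2.67% in Kro-0, SD, n = 2 each; edgeR adjusted p = 0.024), in 4 of 12 alternative settings. Against Col-0 its difference of -26.2 percentage points did not pass (edgeR adjusted p = 0.071). A over A and B was 43.5% in both Kro-0 libraries, against 63.0% and 60.0% in Col-0 (edgeR adjusted p = 0.27). B over B and B11, from the inner donor, ranged from 66.7% to 94.4% over the 18 libraries and was called in no comparison of accessions (edgeR adjusted p of at least 0.51).

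**Figure D5:**
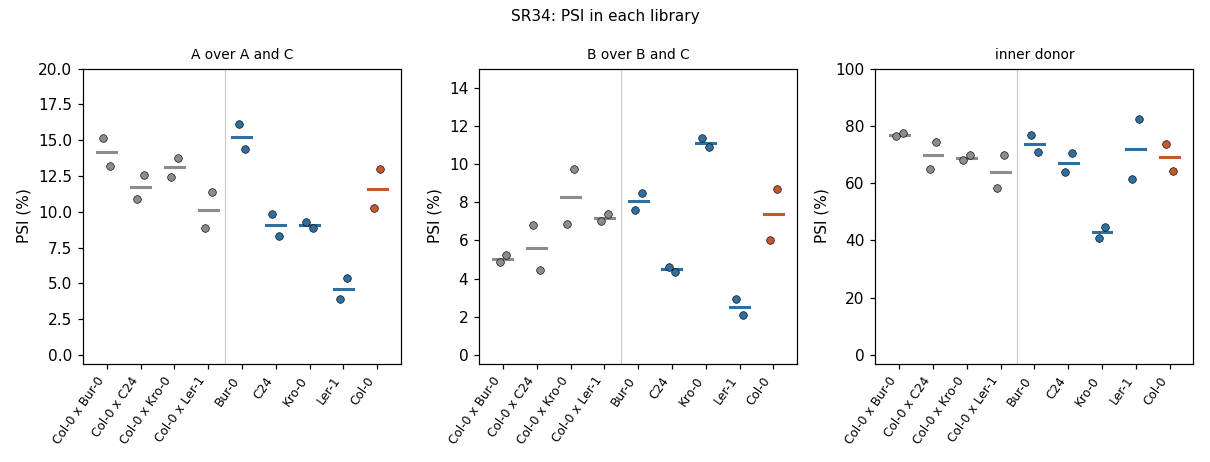
PSI in percent (y) of SR34 acceptor A over A and C, acceptor B over B and C, and the inner donor, in each library (points) with the mean of the 2 libraries (bars), for hybrids (grey), accessions (blue) and Col-0 (orange); the y axes differ. Ler-1 is lowest in the left and middle panels and Kro-0 is lowest in the right panel.

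The hybrids were compared with the mean log2 odds of their parents. That mean is not the mean of the parental PSI, and 0 reads of a form in a parent make it extreme. The 2 scales can differ in sign. For the SR30 21 nt acceptor in Col-0 x C24 the log2 odds difference was 1.54 and the PSI difference -1.53 percentage points. None of the tested events was called: 0 of 13 in the Col-0 x Bur-0 hybrid (0.0980% of all tested events were called), 0 of 10 in Col-0 x C24 (0.119%), 0 of 10 in Col-0 x Kro-0 (0.119%) and 0 of 11 in Col-0 x Ler-1 (0.137%). At an unadjusted p under 0.05 there were 0, 1, 3 and 2 in the same order, DESeq2 called 0 in each, and limma on PSI called 0, 1, 2 and 0 (0.255%, 0.219%, 0.199% and 0.0586% of all). In 4 of the 44 tested cases the hybrid mean equalled that of a parent, in each at a PSI of 0%. Of the other 40, it lay between the means of its parents in 20, where 42.0% of all tested events without such a tie did so.

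For SR34b the hybrids of C24 and Kro-0 held both parental forms. Intron II had a PSI of 11.8% and 29.2% in Col-0 x C24 and 19.5% and 18.6% in Col-0 x Kro-0, below the mid-parent values of 50.5% and 48.4%. Both hybrids thus lay nearer to C24 or Kro-0 than to Col-0. Their differences from the mid-parent passed limma on PSI (adjusted p = 0.011 and 0.017), but not edgeR's test (adjusted p = 0.34 and 0.75). The parents also differed in how many reads the event had: 95 in C24 and 110 in Kro-0, against 48 in Col-0. When the reads of the 2 parents were summed at equal library depth, the expected share was 27.5% for Col-0 x C24 and 25.8% for Col-0 x Kro-0, where the hybrids had 18 of 80 and 19 of 98 reads retained. The crosses with Bur-0 and Ler-1 had no spliced read, with a PSI of 94.7% and 95.2% in the Bur-0 cross.

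Intron I gave 41.2% and 52.1% in Col-0 x C24, where C24 averaged 18.1% and Col-0 91.5%. In Col-0 x Kro-0 it gave 26.5% and 44.9%, where Kro-0 averaged 20.8%. Both hybrids were intermediate, and the parents' summed reads gave 37.6% and 38.6%. Of the reads from the long intron donor, 41 of 56 ended at acceptor a in Col-0 x C24 and 50 of 82 in Col-0 x Kro-0. The downstream leader donor was 43.9% and 44.2% in Col-0 x Kro-0, above the parental means of 26.8% in Kro-0 and 5.26% in Col-0. That difference passed limma on PSI (adjusted p = 0.019) and not edgeR's test (adjusted p = 0.18), and the parents' summed reads gave 23.0%. In Col-0 x C24 the same donor had 29.7% and 14.6%, between the parents.

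For SR30, the upstream acceptor of the 21 nt pair had 4 of 237 and 3 of 218 reads in Col-0 x C24, a PSI of 1.53 ± 0.220%, against 6.11 ± 0.946% in C24 and 0% in Col-0 (SD, n = 2 each). None of the other 3 hybrids had a read of it. The proximal acceptor was 36.4 ± 0.729% in Col-0 x C24, between its parents. It was 58.6 ± 4.44% in Col-0 x Bur-0, 68.0 ± 1.58% in Col-0 x Kro-0 and 57.8 ± 6.58% in Col-0 x Ler-1, each above the means of both parents (edgeR adjusted p = 0.96, 0.59 and 0.4 against the mid-parent). For SR34, acceptor C took 82.0 ± 1.07% in Col-0 x Bur-0, 83.8 ± 0.260% in Col-0 x C24, 80.5 ± 2.37% in Col-0 x Kro-0 and 84.0 ± 1.78% in Col-0 x Ler-1. The SR34 inner donor was 68.8 ± 1.30% in Col-0 x Kro-0, against 42.8 ± 2.67% in Kro-0 and 69.0 ± 6.58% in Col-0 (edgeR adjusted p = 0.73 against the mid-parent).

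Other genes of the splicing machinery were taken from 4 lists. Of 15 other SR genes, 8 or 9 had tested events. By edgeR none of 34 to 36 events was called in Bur-0, C24 or Ler-1 against Col-0. Of all events, 8.66%, 5.94% and 6.80% were called there, and 4, 3 and 2 events of the list had an unadjusted p under 0.05. In Kro-0 against Col-0 1 of 35 was called (5.17% of all events were called). It was an alternative donor of RS40, an SR protein of the plant-specific RS class. This donor fell to 12.0 ± 0.0275% in Kro-0, against 24.3 ± 1.32% in Col-0 (edgeR adjusted p = 0.047). That call held in 3 of 12 alternative settings and was lost under DESeq2 and on leaving out any 1 of the 4 libraries (adjusted p up to 0.20). Between Bur-0 and Kro-0 edgeR called 5 of 35 events, of 4 genes (6.02% of all events were called), all higher in Bur-0, where DESeq2 called 2 of the 93 events of the 4 lists. The largest difference was in an intron of SCL33 (88.6 ± 3.21% in Bur-0 and 45.2 ± 19.7% in Kro-0, edgeR adjusted p = 0.012), whose call held in 6 of 11 alternative settings and was lost without Bur-0 replicate 1, Bur-0 replicate 2 or Kro-0 replicate 1. An intron of RS40 was retained more in Bur-0 (28.1 ± 4.31%) than in Kro-0 (8.90 ± 1.77%, edgeR adjusted p = 0.0018). That call held in 11 of 12 alternative settings. In Bur-0 against C24 this intron was the 1 event called of 34 (7.70% of all), with 9.71 ± 2.52% in C24 (edgeR adjusted p = 0.0038). There the call held in 10 of 12. Of 7 SR-like proteins and kinases, 5 were tested. AFC1, a kinase that phosphorylates SR proteins, had 2 called events of the list's 23 in C24 against Col-0 (5.94% of all), with retention of 93.5 ± 1.72% in C24 and 66.6 ± 6.33% in Col-0 for 1 of them (edgeR adjusted p = 0.023). Both AFC1 calls were lost under DESeq2, under limma on PSI and on leaving out any 1 of the 4 libraries (adjusted p up to 0.19 for this event and 0.28 for the other). In C24 against Kro-0, 3 of 22 events were called (4.76% of all), each of SR45a, an SR-like protein, all lower in C24, among them a skipped exon with 26.8 ± 7.93% in C24 and 64.6 ± 2.95% in Kro-0 (edgeR adjusted p = 0.0081). The skipped exon's call held in 9 of 12 alternative settings and was lost without C24 replicate 1 or Kro-0 replicate 2.

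Of 13 genes of splice site recognition, 9 were tested. Against Col-0, 1 of 34 events was called in Bur-0 (8.66% of all events were called). It was an intron of U2AF65A, which binds the pyrimidine tract before an acceptor (52.1 ± 3.43% in Bur-0 and 29.7 ± 6.07% in Col-0, edgeR adjusted p = 0.018). None was called in C24, Kro-0 or Ler-1 (5.94%, 5.17% and 6.80% of all), where 4, 2 and 5 had an unadjusted p under 0.05. The U2AF65A call held in 7 of 12 alternative settings and was lost without Bur-0 replicate 1, Bur-0 replicate 2 or Col-0 replicate 1 (adjusted p up to 0.21). In Bur-0 against Ler-1, 2 of 34 events of this list were called (7.50% of all), both of U2AF65A and higher in Bur-0. Those calls held in 5 and 6 of 12 alternative settings. In Bur-0 against C24, 1 of 34 was called (7.70% of all), of U2AF65B, which held in 3 of 12. Of 3 genes of nonsense-mediated decay, 1 had 1 tested event, which was called in no comparison. In the hybrids edgeR, DESeq2 and limma on PSI called no event of the 4 lists, of 92 to 95 tested in each hybrid. Of all events tested in the hybrids, edgeR called 0.0980% to 0.137% and limma on PSI 0.0586% to 0.255%. In edgeR 3 to 7 events of the 4 lists had an unadjusted p under 0.05. In Ler-1 against Col-0 edgeR and DESeq2 called 0 of 95 events of the 4 lists, where edgeR called 6.80% of all events. There limma on PSI called 2 of the 95, and 7 had an unadjusted p under 0.05 in edgeR. On these lists the median absolute PSI difference from Col-0 ranged from 1.87 to 2.69 percentage points for the other SR genes, from 2.88 to 5.10 for SR-like proteins and kinases and from 1.93 to 4.47 for splice site recognition. The 1 tested event of the decay genes differed from Col-0 by 0.0898 to 3.85 percentage points.

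The events most like 1 event of each gene were found by Pearson's r of group mean PSI over the 9 groups, among 2070 events with enough reads and range; with so many candidates and hybrids that share parents, r is a description only. Closest to the SR30 proximal acceptor were skipped exons of DRH1 (r = 0.975), an RNA helicase gene, and XBAT35 (r = 0.952), a ubiquitin ligase gene, and an intron of AT1G15030 (r = 0.921). The DRH1 exon ranged from 0.750% in C24 to 15.9% in Col-0 x Kro-0. Closest to the SR34 inner donor were events of AT4G38200 (r = 0.948), the syntaxin gene SYP121 (r = 0.944) and CPL3 (r = 0.935), each lowest in Kro-0. Closest to SR34b intron I were events of AT5G18640 (r = 0.965), AT2G24690 (r = 0.939) and AT1G65270 (r = 0.939), each lowest in Kro-0. SR34b intron I itself was lowest in C24 (mean 18.1%, with 20.8% in Kro-0).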

How the data were processed

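PolyA RNA from first leaves was sequenced in 18 libraries, 2 in each of 9 groups, taken as biological replicates per the series' design text. The authors deposited, for each library, 2 columns of read counts per splicing event and PSI as a fraction. The build was TAIR10, and HISAT2 and edgeR 3.0.8 are named per the submitters' processing notes; the counting rule, filters and strand use are not given in the sources used here. The deposited PSI equalled the second count over both counts plus 1 in every event and library. The 2 counts per library went into the quasi-likelihood test of edgeR 4.0.16 (R 4.3.3), whose design had library terms and the interaction of form with group. Tested were those of the 5403 events in all lists that had 10 or more reads in every library compared. The 10 accession libraries shared 1 fit, and all 18 libraries shared 1 for the hybrids. P-values were Benjamini-Hochberg adjusted over all tested events (threshold 0.05). DESeq2 1.42.0 and limma 3.58.1 were alternatives, with 0.5 added to each form for log2 odds. Upper limits where a form had 0 reads take 3 reads of the total and cover counting error only, since reads carry no molecular identifiers. Coordinates are as deposited. Sequences, annotation and frames come from RefSeq TAIR10.1. On it the first-form intron had GT or GC to AG ends in 98.7% of the alternative-acceptor events and 93.0% of the retention events. Introns of the second form were not part of this check. Where a junction was listed in several events of the 3 genes, its counts were equal in 124 of 126 cases; the other 2 were in Col-0 x Bur-0 replicate 1. Replicate numbers were not used to pair libraries in the main fits.

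The members and gene lists were chosen with earlier results of these data known. Events were described one by one where called in a comparison of accessions, or where all libraries had at least 10 reads and a group mean lay between 5% and 95%; the others were given by counts. For the lists, at most 3 called events of the largest difference per comparison were eligible to be named. The like events are the 3 of highest r, 1 per gene, with at least 10 reads in all libraries and a range of at least 10 percentage points. Alternatives were depth minimums of 20 and 1 read, DESeq2, limma on PSI and on log2 odds, a replicate block, TMM scaling of each form, only the compared libraries, leaving out each library, and PSI without the 1 in the denominator. The parents' summed reads at equal depth were added after seeing the data.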

Additional observations from a re-analysis of the deposited data

Results flagged for a closer look

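Each result here is a difference in PSI between 2 accessions other than Col-0 that passed edgeR's test; since both are compared with the same Col-0 libraries, it is also the test of whether their differences from Col-0 differ. Bur-0 exceeded C24 by 37.5 percentage points in the SR30 proximal acceptor, by 77.6 in SR34b intron I and by 91.1 in SR34b intron II, and differed from it by -6.11 in the SR30 21 nt acceptor. Bur-0 exceeded Kro-0 by 31.0 in the SR34 inner donor, by 74.9 in SR34b intron I and by 95.3 in SR34b intron II. Bur-0 exceeded Ler-1 by 20.6 in the SR30 proximal acceptor, by 10.6 in SR34 A over A and C and by 5.53 in SR34 B over B and C.

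C24 differed from Kro-0 by -42.4 in the SR30 proximal acceptor and by 6.11 in the 21 nt acceptor. C24 differed from Ler-1 by 6.11 in the 21 nt acceptor, by 31.9 in the SR34b leader donor and by -73.3 in SR34b intron I. Kro-0 differed from Ler-1 by 25.5 in the SR30 proximal acceptor, by 8.60 in SR34 B over B and C, by 26.8 in the SR34b leader donor and by -70.5 in SR34b intron I.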

How the results depend on the processing

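The calls in SR34b introns I and II and in the SR30 21 nt acceptor between accessions held in every alternative that could test them, with adjusted p up to 0.037. The 2 events called in Ler-1 against Col-0 became 1 under limma on PSI, the replicate block and TMM of each form, and 0 under DESeq2, limma on log2 odds, only the compared libraries and on leaving out each library (0 to 0). In Kro-0 against Col-0 the 2 became 1 at a minimum of 20 reads, where SR34b intron I, with 15 reads in Col-0 replicate 1, could not be tested. Leaving out a library gave 3 to 4 calls in C24 against Col-0, and 13 to 18 of 19 over the other pairs. At a minimum of 1 read, C24 against Col-0 gave 5 calls in place of 4 and the other pairs 21 in place of 19. At 20 reads they gave 3 and 15. Limma on PSI called 1 event in Col-0 x C24 and 2 in Col-0 x Kro-0, where edgeR called 0. The replicate block changed no other call but gave 20 in place of 19 over the other pairs. Deviations of same-numbered libraries correlated by -0.0893 to 0.144 (median 0.0162) over 36 pairs of groups, so they shared little variation. These values do not tell whether same-numbered libraries were grown or handled together.

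Dropping the 1 from the denominator of PSI moved 36 of 133 group means by more than the SD of their libraries, and summing the parents' reads moved 16 of 60 hybrid differences by more than the SD of the hybrid. The 3 SR34b events (introns I and II and the leader donor), picked after their values were seen, were followed in the hybrids through the 13 or 14 alternatives that could test them. Intron II in Col-0 x Ler-1 was under the minimum of reads, and at a minimum of 20 reads only intron II in the crosses with Kro-0 and with C24 could be tested. Some uncalled differences reversed, on the log2 odds scale unless stated. SR34b intron I reversed in Col-0 x Bur-0 to 2.16 without its replicate 2 and to 0.00163 (PSI as a fraction) under limma on PSI, and in Col-0 x Ler-1 to -0.65 without Col-0 replicate 1, -0.67 without Ler-1 replicate 2 and -0.33 without its own replicate 1. The SR34b leader donor reversed in Col-0 x C24 to -0.11 without its replicate 1. Without 1 library these 3 results ranged from -2.51 to 2.16, from -0.67 to 2.97 and from -0.11 to 2.01. These events had under 60 reads per library, which limits them; the cause was not tested.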
